A study of Rattus norvegicus with 18 samples.

Results

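The dorsal root ganglia (DRG) of 6 bPYX+NT3 rats (rats 2, 11, 17, 23, 39 and 40) were compared with those of 6 naïve rats (rats 41, 42, 43, 44, 45 and 49), which are 12 of the 18 rats of the series. The rats were placed by the rat number that heads each column of the count table, looked up in the study's own list. The headings also hold a sample number, and the sample titles linked to it name the same group for 18 of 18 rats. The titles attached to the single-rat count files name another group for 17 of the 18, although those files hold the same counts as the table. All were adult Lister Hooded rats. The bPYX+NT3 rats had both corticospinal tracts cut in the medullary pyramids (bilateral pyramidotomy) and then an injection of AAV1, a viral vector with human neurotrophin-3 (NT3) behind the CMV promoter, into the forelimb flexor muscles of 1 side. The naïve rats had neither surgery nor vector. Ganglia of cervical levels 6 to 8 on the treated side were taken (10 weeks after surgery in operated rats) and pooled into 1 poly(A) library per rat. The other 6 rats (bPYX+GFP) had the same injury and a vector with GFP in place of NT3. The operated rats also went through behavioural, electrophysiological and nerve tracing work. No group had NT3 without injury or injury without a vector, so in the bPYX+NT3 against naïve comparison the lesion, the vector, NT3 and those procedures cannot be told apart.

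A sensory ganglion holds the cell bodies of neurons that carry touch, limb position, pain, itch and temperature, each wrapped in satellite glia, along with Schwann cells, fibroblasts, vessels and resident immune cells. NT3 is a growth factor made by muscle that is carried back to proprioceptive neurons, where it acts on the receptor TrkC, and it also binds the shared neurotrophin receptor p75. Pyramidotomy cuts descending motor axons of the brain and leaves the axons of the ganglion neurons whole. Schwann cells build myelin from a few abundant proteins and from galactolipids, which are sphingolipids with a galactose head and long, often 2-hydroxylated, fatty acids.

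Reads on genes numbered 10357766 to 16002410 per naïve rat and 10850839 to 15411481 per bPYX+NT3 rat. The tissue's defining genes were high in all 12 rats. Neurofilament heavy chain *Nefh* had 25256 to 31446 (median 27957) normalized counts in naïve rats and 25219 to 43079 (median 31024) in bPYX+NT3 rats. *Pmp22*, of peripheral myelin, had 21337 to 32726 (median 26157) and 19670.3 to 22450.1 (median 21013). *Fabp7*, of satellite glia, had 649 to 1382 (median 1100.1) and 583 to 1278 (median 892). Rat 11 stood apart. The share of its reads on no feature was 30.9%, against 32.9% to 34.1% in the other bPYX+NT3 rats, and its median Spearman correlation with them was 0.9788, against 0.9895 to 0.9931 for theirs. Its neuronal genes were high, with 19539 CPM (counts scaled to library size) summed over the pan-neuronal list against 15194 to 16605 in the other bPYX+NT3 rats. Results that rest on rat 11 are therefore given with and without it, and the part of these differences in any result was not tested. The ligand gene *Ntf3*, its receptor gene *Ntrk3*, and *Tac1* and *Vegfa* were listed at 0 in all 18 rats. Each has several RefSeq identifiers, and reads shared by isoforms were not counted, so a 0 says nothing about expression.

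Normalized counts are counts brought to a common library size with TMM factors. Ranges over 6 rats run from lowest to highest, and a log2 fold change is followed by ± its SE. A gene was called where edgeR's quasi-likelihood test gave an unadjusted p under 0.05, the threshold the study used. By that rule 703 of 11693 genes tested (6.01%) were called, 361 higher (3.09%) and 342 lower (2.92%) in bPYX+NT3 rats, where 5% would pass if no gene differed. After Benjamini-Hochberg correction in edgeR 0 genes passed 0.05, and the adjusted p was 0.607 for each of the 703. The likelihood ratio test called 744 genes and DESeq2 819, both with 0 after adjustment. Every statement of a rise or fall below is therefore at the unadjusted threshold. The changes were small, with a median absolute log2 fold change of 0.316 among called genes, 545 of 703 under 0.5, and 11 over 1. Only 30 of the 11693 genes (0.257%) had no overlap between the groups. If no gene differed, a share of 0.00216 would still separate fully, which is near that. This share equals the smallest p of the exact permutation test. Many genes named below were picked for a small edgeR p in the same counts. For them a lack of overlap or a small exact permutation p is a description and not independent support. In these bulk samples fewer cells of a type and less RNA per cell cannot be told apart.

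The lower genes were the steadier. In all 12 fits that left out 1 rat, 153 of the 342 lower genes (44.7%) and 84 of the 361 higher genes (23.3%) were called. Without rat 11, 365 of 11636 genes (3.14%) were called, 129 higher and 236 lower, of which 322 were among the 703. Adding the no-feature share of each rat to the fit as a covariate gave 480 called genes (4.11%), 213 higher and 267 lower. Leaving out naïve rat 44, 45 or 49, whose no-feature shares of 33.97% to 34.61% were near the top of the range, gave 399, 401 and 395 calls. Leaving out naïve rat 41 or 42, with shares of 32.53% and 32.98%, gave 1185 and 1032, and naïve rat 43 (33.31%) gave 637. Among bPYX+NT3 rats the calls were 433 without rat 2 (33.16%), 855 without rat 17 (32.92%), 1387 without rat 23 (34.15%), 1024 without rat 39 (33.42%) and 657 without rat 40 (33.13%). So the number of higher calls in particular depended on single rats.

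**Figure D1:**
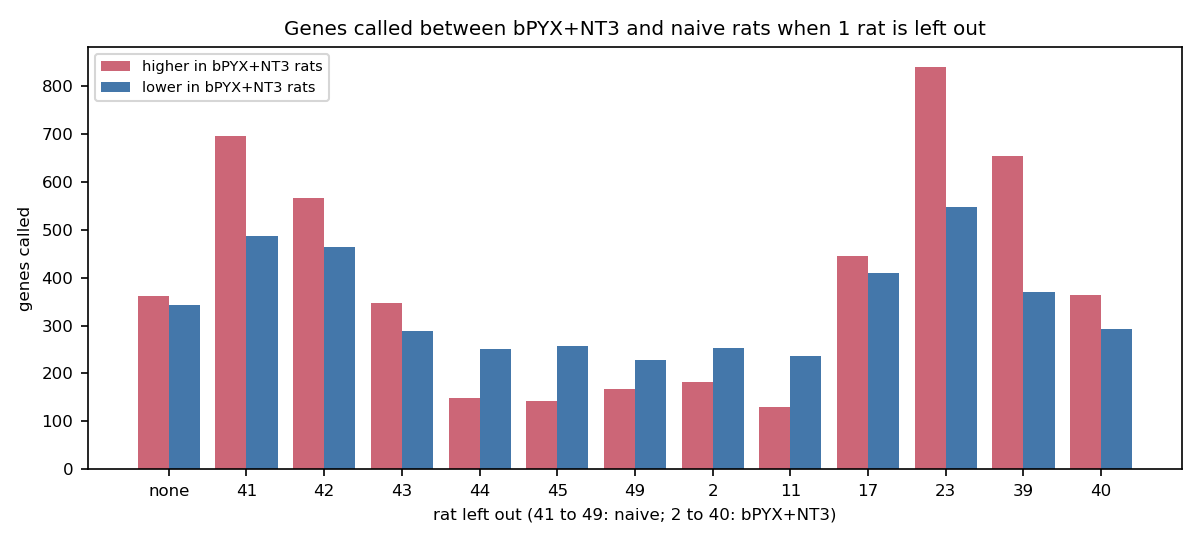
Number of called genes in the bPYX+NT3 against naïve comparison (vertical axis), with no rat left out and with each of the 12 rats left out in turn (horizontal axis). Red bars are genes higher and blue bars genes lower in bPYX+NT3 rats. Higher calls range from 129 without rat 11 to 840 without rat 23, and lower calls from 227 to 547.

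Of 69 gene lists, the shares of called members ran from 0 to well over the 6.01% of all genes. Lists with more lower than higher calls included myelin and sphingolipid genes, collagens and fibroblast genes, transporters of the blood-nerve barrier, mast cell genes and lipid-storage genes. Lists with more higher than lower calls included endothelial genes and neuropeptides and dense-core vesicle proteins. For comparison, the median log2 fold change of all genes tested was 0.001. With 6.01% of all genes called, a short list can easily hold no call, as 18 lists did. The lack of a call is therefore not in itself a result about the genes of a list.

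**Figure D2:**
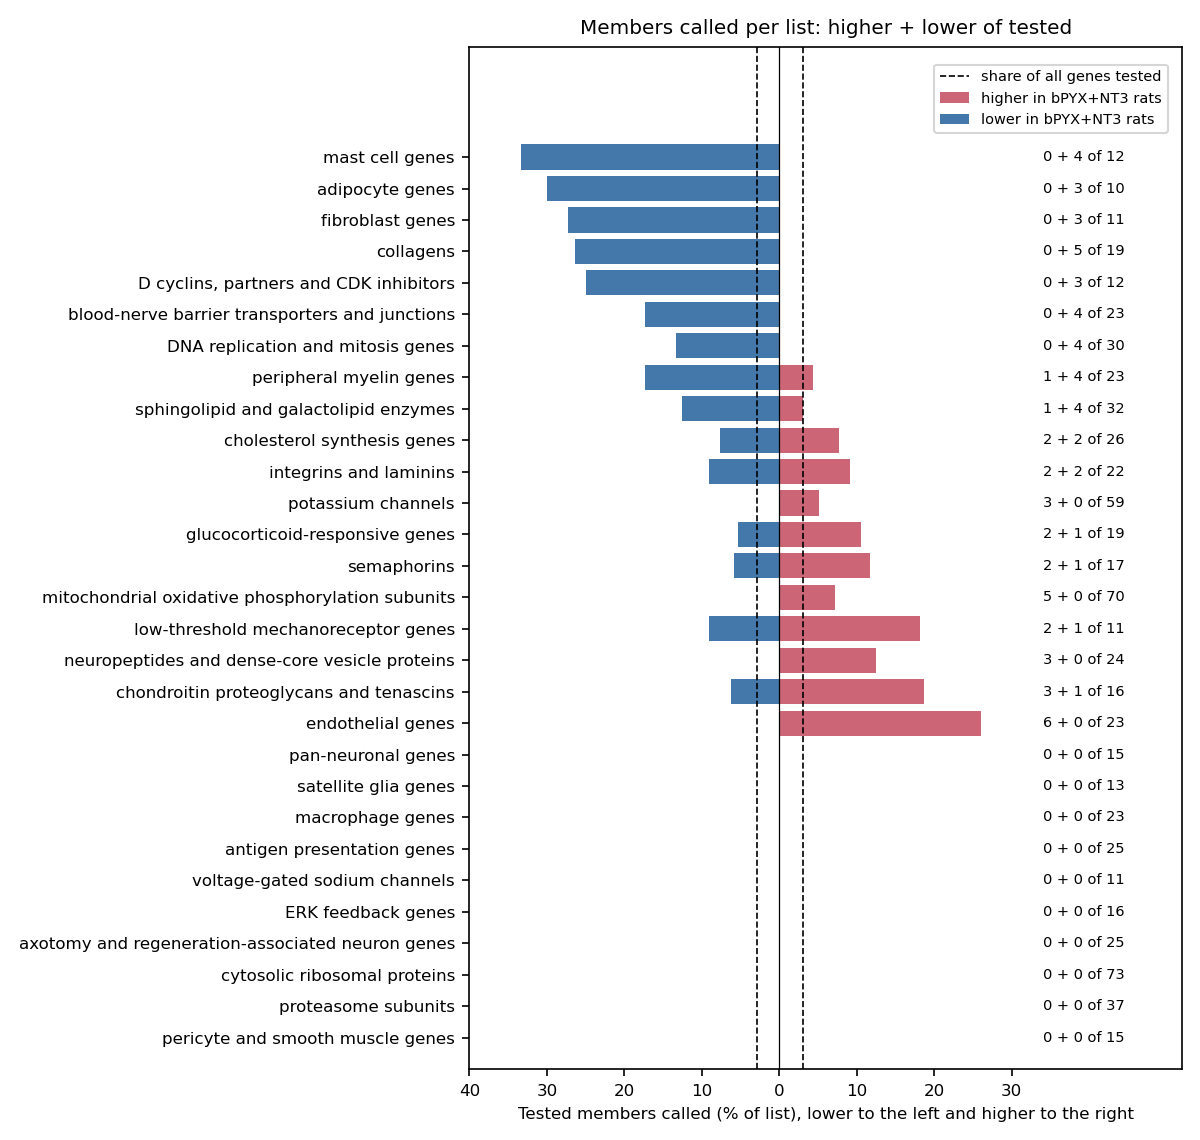
Share of tested members that were called (horizontal axis, per cent of the list) in 29 of the gene lists, with members lower in bPYX+NT3 rats to the left and members higher to the right. The lists shown are those with 3 or more called members and some of those with none. Lists with fewer calls than 3 are otherwise left out, so the lists shown were selected in part for having calls. The dashed lines are the shares over all genes tested, 2.92% lower and 3.09% higher. The numbers at the right are members higher plus members lower of members tested.

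Several genes of galactolipid synthesis and of myelin fell in bPYX+NT3 rats. Of 23 peripheral myelin genes tested, 4 fell and 1 rose (21.7%, against 6.01% called over all genes). Their median was -0.13 in log2 fold change, and without rat 11 the numbers were 5 and 0. Of 32 sphingolipid and galactolipid enzymes 4 fell and 1 rose (15.6%), with a median of -0.04. The summed level of these enzymes was 3272 to 3589.9 (median 3333) CPM in naïve rats and 2949 to 3209.8 (median 3187) in bPYX+NT3 rats. These sums did not overlap, but they are scaled to library size without the TMM factors of the normalized counts. With those factors (1.046 for naïve rat 42, at 3272 CPM, and 0.9752 for rat 39, at 3176 CPM) the groups overlap. Of the 32 enzymes 14 had a log2 fold change above 0. A member of this list is *Ugt8*, which makes the galactosylceramide of myelin. *Ugt8* had 4891 to 8712 (median 6208) normalized counts in naïve rats and 2519 to 4381 (median 4286) in bPYX+NT3 rats, every bPYX+NT3 rat below every naïve rat. The log2 fold change of *Ugt8* was -0.67 ± 0.15 with an exact permutation p of 0.00216, the smallest that 6 against 6 rats can give. Rat 11 was the lowest bPYX+NT3 rat at 2519, and *Ugt8* was called without it.

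Other steps of the same route moved with it. *Fa2h*, which 2-hydroxylates the fatty acids of myelin lipids, was 598 to 986 (median 723) in naïve and 472 to 631 (median 508) in bPYX+NT3 rats, a log2 fold change of -0.48 ± 0.13 (exact permutation p = 0.013). *Cers2*, which makes ceramides with very long chains, fell by 0.22 ± 0.06 on the log2 scale, from 1771 to 2134 (median 1962) in naïve rats to 1541 to 1892 (median 1646) in bPYX+NT3 rats. *B3gnt5*, which extends lactosylceramide in another branch, fell by 0.74 ± 0.16 on the log2 scale, with the smallest edgeR p of all genes tested. Without rat 11 the 4 falls of this list were called and no rise.

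Genes for the proteins of myelin itself fell in part. *Mal*, the proteolipid that carries myelin proteins to the membrane, had 6309.5 to 9972 (median 7143) normalized counts in naïve rats and 4378 to 5979.6 (median 5645) in bPYX+NT3 rats, with no overlap, and a log2 fold change of -0.47 ± 0.11 (exact permutation p = 0.00216). *Pmp22*, whose gene dosage is linked to inherited neuropathy, was 21337 to 32726 (median 26157) and 19670.3 to 22450.1 (median 21013), at -0.31 ± 0.09. *Pmp2*, a fatty acid carrier of myelin, had a log2 fold change of -0.47 ± 0.18, with an exact permutation p of 0.0584 for *Pmp2*. *Egr2*, the transcription factor that drives myelination, was not called at -0.18 ± 0.11. The higher myelin gene was *Nfasc*, the node and paranode adhesion molecule, at 0.36 ± 0.16. It has 4 identifiers, was counted in part and was not called without rat 11.

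The promoters of *Mal*, *Ugt8* and *Pmp22* are shown because these 3 genes, from the membrane, lipid and protein sides of myelin, moved together. RefSeq (GRCr8) gave windows from 250 bases before to 50 after the start for 6 of the 8 lower genes of these lists (*Ugt8*, *Fa2h*, *Cers2*, *B3gnt5*, *Mal* and *Pmp22*). Both strands were searched for ACAAAG and ACAATG (SOX-type), GCGTGGGCG (EGR-type), TGANTCA (AP-1-type, a palindrome) and the CArG box. Of all 33469 promoters, 18.8%, 13.2%, 0.544%, 7.33% and 1.64% held each of these in that order. Among the 6 windows the only match was 1 copy of TGANTCA in *Mal*, 116 bases before the start, in capitals below. A match is a description of the letters and not a site.
Mal (chr3:135341374-135341673, minus strand): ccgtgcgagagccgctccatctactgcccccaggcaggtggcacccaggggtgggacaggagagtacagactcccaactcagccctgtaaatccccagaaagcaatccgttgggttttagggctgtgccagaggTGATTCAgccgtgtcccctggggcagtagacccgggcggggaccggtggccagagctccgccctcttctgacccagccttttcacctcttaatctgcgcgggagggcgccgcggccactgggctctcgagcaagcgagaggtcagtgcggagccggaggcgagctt
Ugt8 (chr2:217007118-217007417, minus strand): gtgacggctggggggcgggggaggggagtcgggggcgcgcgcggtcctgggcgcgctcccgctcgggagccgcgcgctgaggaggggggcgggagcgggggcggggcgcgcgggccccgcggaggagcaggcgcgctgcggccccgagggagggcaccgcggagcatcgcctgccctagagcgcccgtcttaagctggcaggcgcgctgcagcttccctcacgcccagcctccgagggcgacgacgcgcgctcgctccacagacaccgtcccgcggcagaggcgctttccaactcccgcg
Pmp22 (chr10:48294682-48294981, plus strand): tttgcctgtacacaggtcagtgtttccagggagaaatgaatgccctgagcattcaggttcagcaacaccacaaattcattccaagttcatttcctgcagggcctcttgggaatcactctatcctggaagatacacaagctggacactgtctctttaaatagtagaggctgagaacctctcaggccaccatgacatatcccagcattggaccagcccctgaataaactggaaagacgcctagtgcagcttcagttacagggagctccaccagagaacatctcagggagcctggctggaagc

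Several collagen and other matrix genes fell as well. Of 19 collagens tested 5 fell and none rose (26.3%, against 6.01% called over all genes), with a median of -0.05. Of 11 fibroblast genes 3 fell (27.3%), with a median of -0.19. These were *Col1a1*, *Col3a1* and *Dcn*, the first 2 of which stand in both lists. *Col14a1*, a fibril-associated collagen, was 2127 to 2838 (median 2269) normalized counts in naïve rats and 1363 to 2194 (median 1940.3) in bPYX+NT3 rats, a log2 fold change of -0.34 ± 0.11 (exact permutation p = 0.00649). The collagen I gene *Col1a1* was 2072 to 3035 (median 2843) and 1589 to 2465 (median 2100), and *Col3a1*, of the reticular fibres of nerve, was 7057 to 9132 (median 8029) and 5070.1 to 8722 (median 5842), at -0.34 ± 0.12 and -0.37 ± 0.13. *Col11a1* and the basement membrane collagen *Col15a1* were called at -0.27 ± 0.10 and -0.24 ± 0.10. The proteoglycan *Dcn* was barely called at -0.28 ± 0.13 and was not called without rat 11, and *Lum* was not called at -0.26 ± 0.15. The glypican *Gpc3* fell by 0.35 ± 0.13 on the log2 scale. The summed fibroblast list was 2259.6 to 3439 (median 2892) CPM in naïve rats and 2089 to 3083 (median 2288) in bPYX+NT3 rats, which overlap.

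Of the receptors and ligands that anchor Schwann cells to their basement membrane, *Itga6*, the laminin-binding integrin chain, had 5659 to 7611 (median 5773) normalized counts in naïve rats and 3973 to 5583 (median 5069) in bPYX+NT3 rats with no overlap, at -0.31 ± 0.09 (exact permutation p = 0.00216). Laminin gamma 1, *Lamc1*, was called at -0.18 ± 0.06. Of 22 integrins and laminins 2 fell and 2 rose (18.2%, against 6.01% called over all genes). Without rat 11 only those 2 falls were called. Of 16 chondroitin proteoglycans and tenascins 3 rose and 1, *Dcn*, fell (25.0%), with a median of -0.01 and 8 of 16 members above 0. The sum of this list was 1845 to 2596 (median 2268) CPM in naïve rats and 1627 to 2438 (median 1946) in bPYX+NT3 rats, which overlap. Neurocan, *Ncan*, was 200.1 to 293 (median 231) in naïve rats and 281 to 379 (median 328) in bPYX+NT3 rats, at 0.48 ± 0.12 (exact permutation p = 0.00649), and the link protein *Hapln4* was called at 0.35 ± 0.14. *Acan*, the core proteoglycan of perineuronal nets, was low at 17.3 to 23.3 (median 19.9) and 16.7 to 43.7 (median 27.2) and was called at 0.56 ± 0.23. *Hapln4* and *Acan* were not called without rat 11, and *Ncan* was.

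Among vessel genes, the called members of the barrier list were all lower and those of the endothelial list all higher. Of 23 transporters and junction genes of the blood-nerve barrier 4 fell and none rose, and of 23 endothelial genes 6 rose and none fell. The shares called were 17.4% and 26.1%, against 6.01% over all genes, with medians of -0.05 and 0.24. The thyroid hormone carrier *Slco1c1* had 136 to 241 (median 170.5) normalized counts in naïve rats and 78 to 143 (median 109) in bPYX+NT3 rats, a log2 fold change of -0.76 ± 0.18 (exact permutation p = 0.00649). The efflux pump *Abcg2* was 834 to 1143 (median 1085) and 567 to 918 (median 811), at -0.46 ± 0.12 (exact permutation p = 0.00649). The organic anion carrier *Slco1a4* and the thiamine carrier *Slc19a3* were called at -0.49 ± 0.16 and -0.43 ± 0.19. Only *Slc19a3* of the 4 was not called without rat 11.

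Among the endothelial genes, *Flt4*, the VEGF-C receptor of lymphatic and sprouting endothelium, was low, with 5.56 to 14 (median 10.4) normalized counts in naïve rats and 15.7 to 36.7 (median 21) in bPYX+NT3 rats, and did not overlap. *Dll4*, the Notch ligand of tip cells and a member of the Notch list, was 18.1 to 58.6 (median 46.2) and 51.7 to 107 (median 73.7) (log2 fold change 0.80 ± 0.26), and *Plvap*, of fenestrated vessels, 11.1 to 24.6 (median 17.9) and 19.1 to 38.2 (median 27.5) (0.62 ± 0.23). The transcriptional repressor *Bcl6b* was called at 0.45 ± 0.15, the VEGF receptor gene *Flt1* was called at 0.28 ± 0.12, *Vwf*, the clotting factor of endothelium, at 0.41 ± 0.18, and *Nos3* at 0.57 ± 0.26. *Vwf* and *Nos3* were not called without rat 11, where 4 members of the list rose and 1 fell. The summed endothelial list overlapped, with 519 to 674 (median 546) CPM in naïve rats and 483 to 729 (median 620.1) in bPYX+NT3 rats, and of 15 pericyte and smooth muscle genes none was called.

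Of 12 mast cell genes tested 4 fell and none rose (33.3%, against 6.01% called over all genes). In this list 11 had a log2 fold change below 0, with a median of -0.46. *Cpa3*, the protease stored in mast cell granules, had 36.9 to 66.3 (median 52.7) normalized counts in naïve rats and 15.8 to 39.2 (median 30.8) in bPYX+NT3 rats, at -0.88 ± 0.22 (exact permutation p = 0.00433). The protease gene *Mcpt1l1* was 46.9 to 75.6 (median 54.6) and 30 to 45.3 (median 39.4) with no overlap (-0.58 ± 0.17), the IgE receptor chain *Ms4a2* 31.6 to 63.4 (median 39.5) and 14.8 to 43 (median 27.5) (-0.73 ± 0.28), and the chymase gene *Cma1* was called at -0.71 ± 0.28. All 4 were called without rat 11. In CPM the whole list summed to 171 to 204 (median 183) in naïve rats and 161 to 185 (median 167) in bPYX+NT3 rats, which overlap. Reads of mast cell proteases can be divided between near-identical copies, so single protease counts are uncertain.

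Other immune lists held no call or 1 call, where 6.01% of all genes were called. None of 23 macrophage genes, 25 antigen presentation genes, 10 T and B cell genes or 9 neutrophil and monocyte genes was called. The neutrophil list had a median of -0.71 with 0 of 9 members above 0, and red blood cell genes -0.54, with no call. The summed macrophage list ran from 395 to 1091 CPM in bPYX+NT3 rats and from 421 to 872 in naïve rats, rat 17 being highest. NF-kB genes had a median of 0.27 with 1 of 20 called (*Map3k14*).

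**Figure D3:**
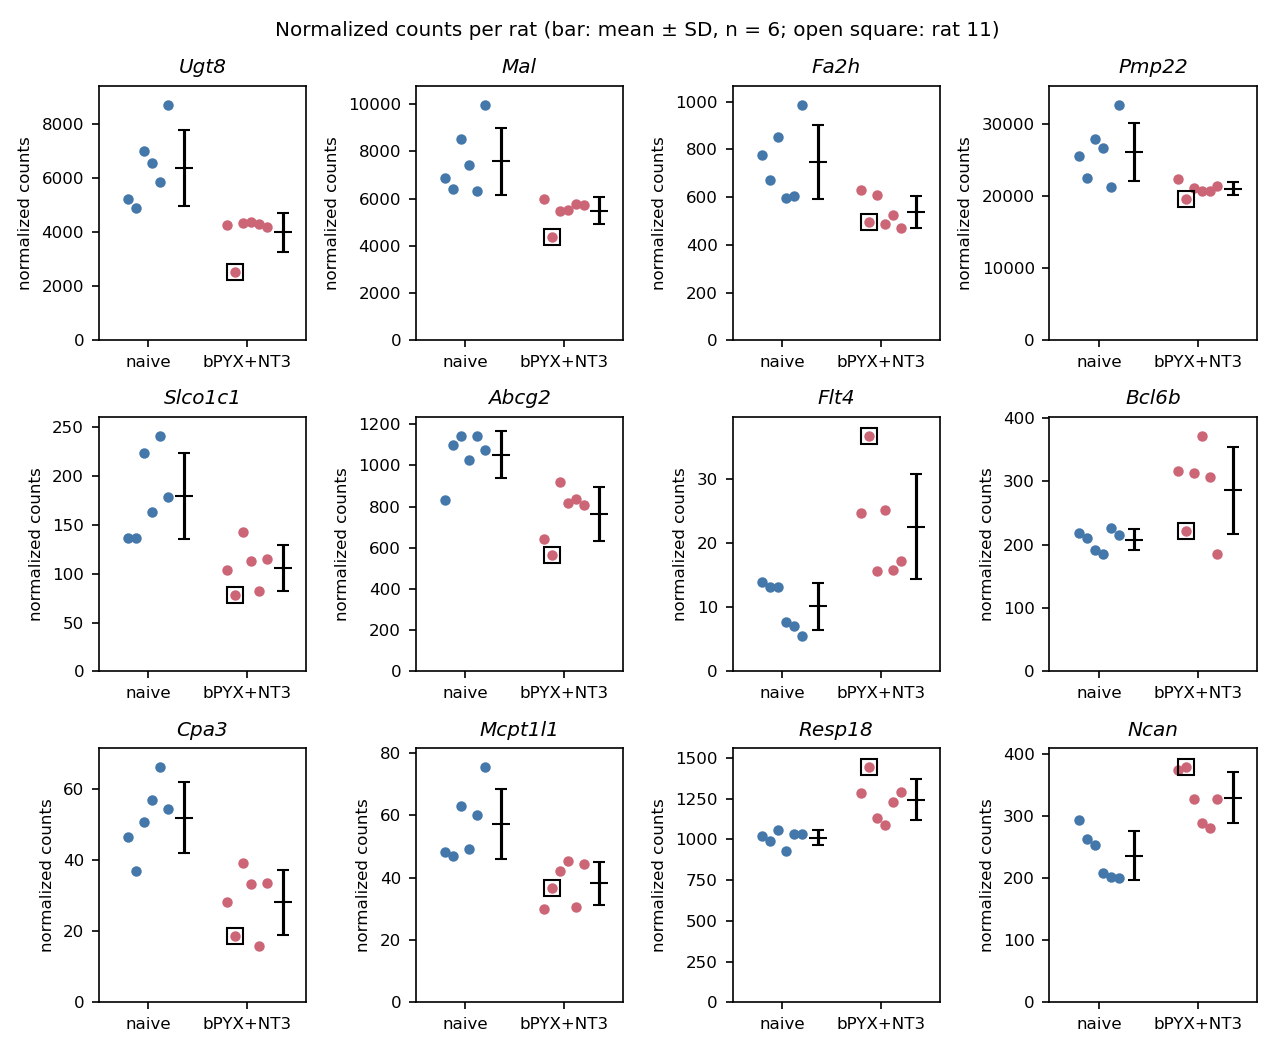
Normalized counts (vertical axis) of 12 genes in each of 6 naïve rats (blue) and 6 bPYX+NT3 rats (red). Bars are the mean ± SD (n = 6) and the open square marks rat 11. *Ugt8*, *Mal*, *Flt4*, *Mcpt1l1* and *Resp18* do not overlap between the groups, and rat 11 is the lowest bPYX+NT3 rat for *Ugt8* and *Mal*.

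Some lipid-storage genes fell. Of 10 adipocyte genes 3 fell, with a median of -0.33 and 9 of 10 below 0. The 3 were *Lpl*, *Scd* and *Adipoq*, and of 15 fatty acid synthesis genes 2 fell (13.3%), *Scd* and *Thrsp*. *Lpl*, the lipase that frees fatty acids from lipoproteins, was 465 to 870.4 (median 603) normalized counts in naïve rats and 261 to 512 (median 459) in bPYX+NT3 rats, at -0.60 ± 0.17 (exact permutation p = 0.00649). *Scd*, which desaturates fatty acids, was called at -0.39 ± 0.13. *Adipoq*, the adipocyte hormone adiponectin, was 8.14 to 264 (median 60) and 8.16 to 55.9 (median 17.6), at -1.85 ± 0.73 (exact permutation p = 0.214). The Adipoq log2 fold change was not called without naïve rat 44, its highest (-1.14), or without rat 2 (-1.72) or rat 40 (-1.67). *Thrsp*, a gene of fat synthesis, had the largest absolute change among the named genes at -3.18 ± 0.80, from counts of 3.72 to 255 (median 53.1) in naïve rats and 2.72 to 19.6 (median 6.99) in bPYX+NT3 rats, and *Car3*, of fat and muscle, was called at -1.94 ± 0.82. For *Adipoq*, *Thrsp* and *Car3* the groups overlap widely, and the exact permutation p was 0.039 for *Thrsp* and 0.379 for *Car3*. *Thrsp* passed the filter on low counts in 6 of the 12 fits that left out a rat.

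Few neuron genes were called, but with 6.01% of all genes called a short list can hold none. Of 15 pan-neuronal genes none was called, nor any of 11 sodium channels, 14 calcium channels or 4 HCN channels. *Prph*, of small neurons, was 0.45 ± 0.23 and was not called, with rat 11 the highest. Of 12 genes of proprioceptors and large-fibre neurons, the neurons that carry TrkC, 1 rose (8.33%, near the share of all genes). It was the protocadherin *Pcdh8* (0.63 ± 0.27), and without rat 11 none was called. Parvalbumin, *Pvalb*, of the same neurons, was 1326 to 1537 (median 1431) normalized counts in naïve and 1279 to 1925 (median 1474) in bPYX+NT3 rats, a log2 fold change of 0.06 ± 0.09, and it took the other sign without rat 11. Of 14 neurotrophin and receptor genes 1 was called (7.14%, also near the share of all genes). It was *Ngfr*, the p75 receptor (0.34 ± 0.14), which was not called without rat 11.

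Some peptides of secretory granules rose. Of 24 neuropeptides and vesicle proteins 3 rose and none fell (median 0.09). These were 12.5% of the list, against 6.01% called over all genes, and 2 were called without rat 11. The sum was 4008 to 4206 (median 4146) CPM in naïve rats and 4261 to 4500.3 (median 4344) in bPYX+NT3 rats. These sums did not overlap, but they are scaled to library size without the TMM factors of the normalized counts. With those factors (0.959 for naïve rat 44, at 4139 CPM, and 1.037 for rat 2, at 4266 CPM) the groups overlap. *Resp18*, of dense-core vesicles, was 928 to 1057 (median 1025) normalized counts in naïve rats and 1087 to 1445 (median 1259.7) in bPYX+NT3 rats, with no overlap, at 0.30 ± 0.07 (exact permutation p = 0.00216). *Calcb*, the beta form of CGRP, was 980.5 to 1232 (median 1104) and 1204 to 1395 (median 1332) (0.25 ± 0.06), and neuromedin B, *Nmb*, was called at 0.50 ± 0.20 but not without rat 11. *Calca*, with 3 identifiers, was counted in part and was not called at 0.21 ± 0.22.

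Signals between axons and their surroundings changed as single genes. Of 17 semaphorins 2 rose and 1 fell (17.6%, against 6.01% called over all genes). *Sema4d* had 554 to 591 (median 572) normalized counts in naïve rats and 597 to 718 (median 650.1) in bPYX+NT3 rats, with no overlap, at 0.19 ± 0.06 (exact permutation p = 0.00216), and *Sema7a*, which is tethered by a lipid anchor, was called at 0.30 ± 0.10. *Sema5a* was lower at 5276 to 8394 (median 6402) and 3206 to 5799 (median 5367) (-0.37 ± 0.14). None of 8 plexins and neuropilins was called.

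Of 21 immediate early genes 2 rose (9.52%, against 6.01% called over all genes). *Egr1*, induced by neuronal activity and growth factors, had 34.5 to 83.7 (median 44.3) normalized counts in naïve rats and 60.9 to 137 (median 81) in bPYX+NT3 rats, at 0.76 ± 0.26 (exact permutation p = 0.026). The groups overlap, and the gene was called without rat 11. *Junb* was 7.78 to 16.9 (median 15.5) and 12.8 to 49.9 (median 17), at 0.76 ± 0.35, with rat 11 far above the rest, and was not called without it. None of 16 ERK feedback genes and none of 25 axotomy and regeneration genes was called.

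In the cell cycle lists, 4 of 30 DNA replication and mitosis genes and 3 of 12 D cyclins and their partners fell. These shares were 13.3% and 25.0%, against 6.01% called over all genes. *Ccnd1* fell by 0.36 ± 0.10 on the log2 scale, the ribonucleotide reductase gene *Rrm2* by 0.36 ± 0.14 and *Cdk6* by 0.30 ± 0.12. Without rat 11 the numbers were 1 and 1, and *Cdk6* was not called. The endoplasmic reticulum chaperones *Hspa5* and *Hsp90b1* were called at -0.25 ± 0.11 and -0.23 ± 0.09, and neither was called without rat 11.

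Of 70 subunits of oxidative phosphorylation 5 rose and none fell (7.14%, near the 6.01% called over all genes), and only 1 was called without rat 11. *Ndufb10* was steady at 0.19 ± 0.07, called in every one of the 12 fits that left out a rat. *Ndufb7* reached 129.5 normalized counts in rat 11, against 21.5 to 54.8 in the others, and *Ndufs7* 77.3 against 11.8 to 32.7. None of 73 ribosomal protein genes and 37 proteasome genes was called.

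The bPYX+GFP rats had the injury with another transgene and are compared with the same naïve rats, which the 2 comparisons share. Between bPYX+NT3 and bPYX+GFP rats 201 of 11623 genes (1.73%) were called, and between bPYX+GFP and naïve rats 377 of 11601 (3.25%). *Ugt8* was -0.63 ± 0.15 in log2 fold change in bPYX+GFP against naïve rats and -0.04 ± 0.14 in bPYX+NT3 against bPYX+GFP rats. In the same order *Slco1c1* was -0.76 ± 0.21 and 0.00 ± 0.20, and *Col1a1* -0.49 ± 0.12 and 0.16 ± 0.12. *Cpa3* was called in both, at -0.35 ± 0.16 and -0.53 ± 0.22. Among genes not called in bPYX+GFP against naïve rats, *Egr1* was 0.28 ± 0.24 and 0.49 ± 0.22, *Ncan* 0.17 ± 0.12 and 0.31 ± 0.12, and *Resp18* 0.16 ± 0.08 and 0.15 ± 0.10. Of these 3, *Egr1* and *Ncan* were called between the injured groups and *Resp18* was not. So *Ugt8*, *Slco1c1* and *Col1a1* fell in each injured group relative to naïve rats and were not called between the injured groups, which does not show that they are alike.

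**Figure D4:**
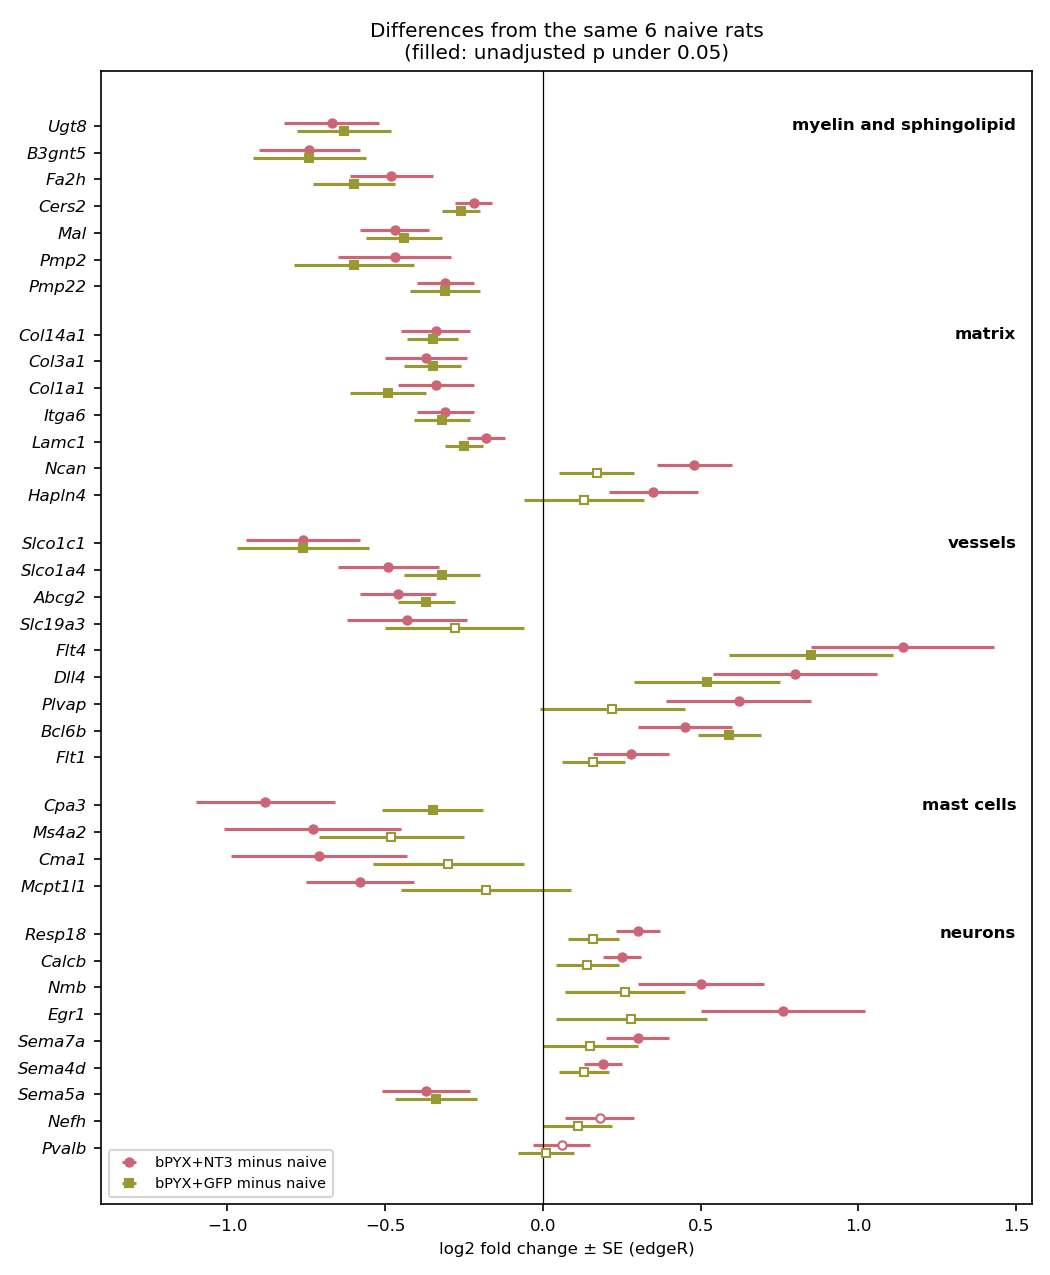
Log2 fold change ± SE from edgeR (horizontal axis) for named genes of 5 programmes (vertical axis) in bPYX+NT3 rats (red circles) and bPYX+GFP rats (olive squares) against the same 6 naïve rats. Filled symbols had an unadjusted p under 0.05. *Ugt8*, *Slco1c1* and *Col1a1* are filled and below 0 in both, *Ncan* and *Egr1* are filled for bPYX+NT3 and open for bPYX+GFP rats, and *Pvalb* is open in both.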

How the data were processed

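Poly(A) RNA of 18 rats had been read as 50 bp paired ends. Per the labels and methods, the authors converted reads with bcl2fastq 1.8.4, aligned them to Rnor_6.0 with TopHat2, removed duplicates with Picard, used HTSeq to count read-pairs on each RefSeq identifier, and deposited the counts without normalization. Read-pairs on no feature (33.3% on average), ambiguous ones and those on several locations were left out. Symbols came from RefSeq (GRCr8) for 14193 of 15075 identifiers. For the 12 rats, genes above 10 reads in 6 or more rats entered edgeR 4.0.16 under R 4.3.3 (TMM, then glmQLFit and glmQLFTest), with Benjamini-Hochberg adjustment and no covariate. For single genes a two-sided exact permutation test was run on log2 CPM with a prior count of 2. The SE is the log2 fold change divided by the square root of F. Each rat is 1 library, and p-values measure the spread between these rats. The members, the 69 lists and the tests were chosen with earlier results of these data known. Genes were named by the 10 smallest p in each direction, the 10 largest changes with a mean of 20 or more normalized counts, up to 6 called and the 3 highest members of each list, *Ntf3*, *Ntrk3*, *Ngfr* and the defining markers, and those that served a paragraph were printed. The results of some named genes are not reported here. The alternatives were the likelihood ratio test, DESeq2 1.42.0, its size factors or library size alone, no filter or more than 50 reads, 1 fit over 3 groups, the no-feature share as a covariate, robust estimation, the groups of the titles attached to the single-rat files, leaving out each rat, and a replicate block added after seeing the data. The fits were tested on simulated data. Figures were drawn with matplotlib 3.10.9.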

Additional observations from a re-analysis of the deposited data

Results flagged for a closer look

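In 29 of 384 groups of 6 rats examined, the highest or lowest rat lay further from the rest than Dixon's limit for 6 samples. Chance flags about 1 group in 20. Of the 29, rat 11 was the distant rat in most. Its share of reads on no feature was 30.9% and its ambiguous share 3.41%, against 32.9% to 34.1% and 2.88% to 3.04% in the other bPYX+NT3 rats.

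Among genes, rat 11 was lowest of the bPYX+NT3 rats for *Ugt8* (2519 normalized counts), *Mal* (4378), *Sema5a* (3206) and *Prkcq* (276). It was highest for *Dohh* (78.8), *Ndufb7* (129.5), *Ndufs7* (77.3), *Junb* (49.9), *Adora1* (259.9), *Prph* (5837) and *Pvalb* (1925). In sums over lists, in CPM, rat 11 was highest for pan-neuronal genes (19539), proprioceptor and large-fibre neuron genes (5184), the aryl hydrocarbon receptor pathway (2872), glycolysis enzymes (6742) and oxidative phosphorylation subunits (11274), and lowest for sphingolipid and galactolipid enzymes (2949).

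Rat 17 was the highest bPYX+NT3 rat for *Car3* (52.9 normalized counts) and *Mx2* (1477), and for the sums of immediate early genes (748 CPM), macrophage genes (1091) and interferon-stimulated genes (1144). Among naïve rats, rat 44 was highest for *Leprot* (1122), *Car1* (202) and *Rrm2* (331 normalized counts), rat 49 for the sum of chloride and bicarbonate transporters (1682 CPM) and rat 42 for the sum of pericyte and smooth muscle genes (511). The part of these distances in the group differences was not tested.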

How the results depend on the processing

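At an unadjusted p under 0.05 the fits called 330 genes (105 higher, 225 lower) with the groups of the titles attached to the single-rat files, which are other rats, and there 1 gene passed adjustment. The no-feature share as a covariate gave 213 higher calls against 361. Leaving out 1 rat gave 365 to 1387 calls, 129 to 840 higher and 227 to 547 lower, with 0 after adjustment in each. The likelihood ratio test, DESeq2, the other scalings and filters, 1 fit over 3 groups and robust estimation gave 586 to 859 calls, all within 1.5 times of 703. Of the named genes, *Pvalb* changed sign, to -0.03 with the covariate and -0.02 without rat 11 (-0.02 to 0.12 over the 12 fits that left out a rat), and among all values of named genes 61 lost and 17 gained a call in these settings, and 208 lost and 28 gained one when a rat was left out. The cause was not tested.

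The replicate numbers were tried as a block. Same-numbered rats correlated in their deviations from the group means at 0.332, 0.534, -0.303, 0.487, 0.286 and 0.405, so not every pair was over 0.1, and 5 of 12 rats correlated best with their own number. These values do not settle whether same-numbered rats share an order or batch, which was not tested, and the main fit kept no block. With the block 2962 genes were called, 1686 higher and 1276 lower, and 0 after adjustment. Depth limits the low genes, since a count near 10 reads carries a large counting error.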

Other observations

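Some called genes stand outside the programmes described above. *Stc1*, a secreted glycoprotein of calcium handling, had 98.7 to 149.8 (median 119) normalized counts in naïve rats and 143 to 299 (median 230.2) in bPYX+NT3 rats. *Bmp7* rose with a log2 fold change of 0.63 ± 0.23 while its secreted antagonist *Grem1* fell at -0.36 ± 0.12. *Aldh1a1*, which makes retinoic acid, was 559 to 768 (median 662) and 352 to 601 (median 479), at -0.51 ± 0.13. *Tbx18*, a transcription factor of perineurial cells, was called at -0.44 ± 0.15, *Myoc*, a secreted glycoprotein, at -0.42 ± 0.10, and the membrane protein gene *Itm2a* at -0.43 ± 0.10. All of these were called without rat 11. *Lin28a*, which binds let-7 precursors, was 10.6 to 18.6 (median 15.1) and 5.44 to 9.55 (median 7.92), and *L3hypdh*, a hydroxyproline dehydratase, 28.9 to 37.1 (median 30.4) and 16.8 to 25.5 (median 18.6), both with no overlap. *Rtn4ip1*, a mitochondrial protein, was called at 0.42 ± 0.11, and *Chrna4*, a nicotinic receptor subunit, at 0.92 ± 0.25 from 5.18 to 23 normalized counts. *Chrna4* passed the filter on low counts in 6 of the 12 fits that left out a rat.

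Potassium channels were called about as often as all genes. Of 59 tested 3 rose (5.08%, against 6.01% called over all genes). Among them were *Kcnc4* (log2 fold change 0.23 ± 0.09), of the fast delayed rectifiers, and *Kcnq5* (0.21 ± 0.09), of the M-current. Without rat 11, *Kcnq5* was called and *Kcnc4* was not. Over the 12 fits that left out a rat, however, *Kcnq5* was called in 4 and *Kcnc4* in 9. The calcium-activated chloride channel *Ano1* was called at 0.23 ± 0.09. In the cholesterol pathway 2 genes rose and 2 fell of 26 (15.4%). Among these *Lss* was higher at 0.25 ± 0.09, and *Nsdhl* at -0.20 ± 0.08 and *Idi1* at -0.28 ± 0.13 were lower. In synaptic vesicle fusion, *Sv2a* (0.26 ± 0.11) and *Syp* (0.35 ± 0.16) rose of 35 genes (5.71%, also near the share of all genes). Neither was called without rat 11. Of the low-threshold mechanoreceptor genes, *Colq*, which anchors acetylcholinesterase, was 49.2 to 69.9 (median 67.5) and 71.6 to 109 (median 82.5) with no overlap, and the transcription factor *Maf* fell at -0.24 ± 0.09.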
